A study of Homo sapiens with 3 samples.

Results

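The comparison described here sets MDA-MB-231 cells depleted of the transcription factor FoxO3 against control cells, across all genes, with attention to the base composition of their transcripts. MDA-MB-231 is an established line from a human triple-negative breast cancer, grown here in DMEM with 10% serum. All cultures were infected with lentivirus for 24 h, given fresh medium and harvested 72 h later, and libraries were made from 3 ug of total RNA with an Illumina TruSeq kit. The study holds 3 libraries, labelled Co for the control, sF_3 for the FoxO3 depletion and sG_sF_3 for the co-depletion of Geminin and FoxO3, and the sources used here give neither the control vector nor the sequences used for depletion. Genes were chosen by level alone: of 48162 Ensembl genes in the files, the 12720 with a GENCODE 29 symbol and a mean of at least 1 FPKM over control and FoxO3 depletion were analysed, 11456 of them protein-coding. FPKM is a fragment count divided by transcript length and library size, so levels of different genes can be compared. Values are printed with the control first, then the FoxO3 depletion and, where a number follows these, the co-depletion. Just inside that limit lay RBX1, at 1.08 and 0.921 FPKM, and just outside it the pseudogene DHFRP1, at 1.08 and 0.914. With 1 library per group every difference is one between 2 libraries, has no replicate check and carries no p-value.

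The labels were checked first on the targeted gene and on cell markers. FOXO3 was at 12.2 FPKM in Co, 2.79 in sF_3 and 2.94 in sG_sF_3. The FoxO3-depleted library therefore held 22.8% of the control level, with a counting interval of 19.3% to 26.8% on 1017 and 172 reads. VIM, CD44, CAV1, AXL and EGFR, markers of the mesenchymal triple-negative state, summed to 2435 and 2595 FPKM. Its members went both ways: CD44 was at 630.8 and 935.2 FPKM and VIM at 593.2 and 607.3. AXL was at 534 and 482.4, CAV1 at 530.2 and 432.1 and EGFR at 146.5 and 137.5. Luminal and receptor markers summed to 61.1 and 64.8 FPKM over 7 genes. In that list ERBB2 was at 38.04 and 41.6, EPCAM at 13.75 and 9.80 and GATA3 at 8.78 and 12.15 FPKM. The oestrogen receptor gene ESR1 stood at 0.0441 and 0.119 FPKM. Of the 4 listed markers of HEK293, a line often used to package lentivirus, all were at 0 in the control, and LIN28B alone was above it in the FoxO3 depletion, at 0.0169 FPKM. Leukocyte markers summed to 7.05 and 8.16 FPKM over 6 genes, with CD14 at 6.76 and 8.09 FPKM and CD3E and CD68 at 0 in both libraries. Fibroblast markers summed to 30.3 and 54.7 FPKM over 6 genes. That sum came from COL1A1, COL1A2 and PDGFRB, while COL3A1, DCN and LUM were each under 1 FPKM in both libraries.

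FoxO3 is a forkhead transcription factor that binds DNA as a monomer and is kept out of the nucleus when AKT phosphorylates it, so that growth factor signalling silences it. It is best known for activating genes of cell-cycle arrest, stress resistance and cell death. The GC content of a human transcript, the share of its bases that are G or C, follows that of the chromosomal region around the gene, and it varies most freely at the third position of codons (GC3), where many changes leave the amino acid as it is. It also bears on how RNA is fragmented, copied and amplified on its way into a sequencing library, so transcripts of differing GC content can be recovered unequally in different libraries.

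The span of composition is easiest to see in the transcripts themselves. Shown are the 60 central coding bases of the longest coding exon, from GENCODE 29 (GRCh38), 5′ to 3′ along the transcript, with G and C in capitals. The first 4 genes are AT-rich and were lower in the FoxO3-depleted library, CCT6A and CCT7 encode subunits of 1 complex, RXRA is a GC-rich gene that was lower, CXCL10 is an AT-rich gene that was higher, and ADM and TOMM40 are GC-rich genes that were higher.
CENPF, chr1:214641593-214641652 (+): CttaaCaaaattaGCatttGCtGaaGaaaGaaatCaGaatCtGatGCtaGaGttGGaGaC
CEP350, chr1:180093585-180093644 (+): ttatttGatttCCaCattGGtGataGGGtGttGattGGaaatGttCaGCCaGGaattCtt
IFT80, chr3:160381584-160381643 (-): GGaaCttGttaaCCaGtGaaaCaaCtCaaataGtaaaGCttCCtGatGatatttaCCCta
ZNF33B, chr10:42593628-42593687 (-): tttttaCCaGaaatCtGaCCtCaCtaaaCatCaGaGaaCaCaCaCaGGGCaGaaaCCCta
CCT6A, chr7:56055681-56055740 (+): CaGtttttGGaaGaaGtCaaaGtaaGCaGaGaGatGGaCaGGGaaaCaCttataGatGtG
CCT7, chr2:73252719-73252778 (+): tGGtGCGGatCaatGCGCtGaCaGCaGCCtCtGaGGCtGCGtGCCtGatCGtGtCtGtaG
RXRA, chr9:134401727-134401786 (+): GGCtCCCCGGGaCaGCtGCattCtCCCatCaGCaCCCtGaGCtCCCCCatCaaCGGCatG
CXCL10, chr4:76022725-76022784 (-): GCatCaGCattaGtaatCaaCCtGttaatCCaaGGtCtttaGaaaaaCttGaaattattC
ADM, chr11:10306455-10306514 (+): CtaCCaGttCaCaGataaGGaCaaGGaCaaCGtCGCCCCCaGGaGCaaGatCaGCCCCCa
TOMM40, chr19:44891523-44891582 (+): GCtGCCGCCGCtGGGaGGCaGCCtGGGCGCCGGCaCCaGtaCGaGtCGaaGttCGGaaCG
G and C made up 21 of the 60 bases in CENPF and in IFT80, 22 in CEP350, 25 in ZNF33B, 24 in CCT6A and 36 in CCT7. They made up 39 in RXRA, 19 in CXCL10, 34 in ADM and 43 in TOMM40.

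Lower genes outnumbered higher ones in the FoxO3-depleted library, and most of the lower genes had AT-rich transcripts. Ratios are given as log2 of (FPKM + 1) in the FoxO3 depletion over (FPKM + 1) in the control, a scale that understates differences of low genes. At 2-fold on that scale, 84 genes were higher, 0.66% of those analysed, and 669 were lower, 5.26%. Ratios had a median of -0.08 over all 12720 analysed genes, of which 7289 lay below 0 and 5431 above. When genes were divided into 10 equal groups by the mean GC content of their transcripts, the group poorest in GC had a median log2 ratio of -0.64, and 298 of its 1272 genes were at least 2-fold lower against 3 higher. The next groups had medians of -0.38, -0.23 and -0.08, and from the fifth group to the richest the medians lay between -0.02 and 0.07. In the group richest in GC, 9 genes were lower and 12 higher. The 3 poorest groups held 536 of the 669 lower genes, or 80.1%. Expressed as a share of all FPKM of analysed genes, the poorest group made up 6.08% in control and 4.16% in FoxO3-depleted cells. The difference in median between the richest and the poorest group was 0.68.

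**Figure D1:**
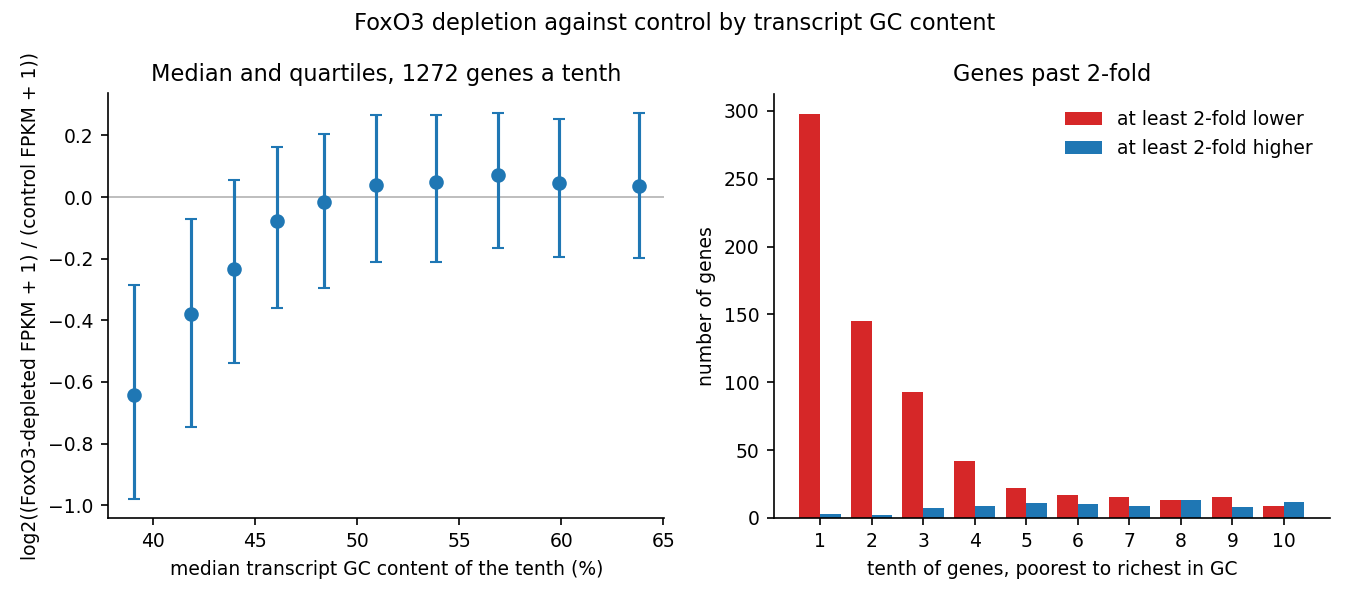
Left, the median log2 ratio (FPKM + 1 scale, vertical axis) of each decile of genes against the decile's median transcript GC content in percent, with bars from the lower to the upper quartile of genes. Right, the number of genes at least 2-fold lower (red) or higher (blue) in each decile: lower genes go from 298 in the GC-poorest decile to 9 in the richest, while higher genes stay between 2 and 13.

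The slope was set by the AT-rich side and was seen at every level of expression and every transcript length examined. Across genes, which share both libraries and are not replicates, Spearman's rho between ratio and transcript GC content was 0.386. Within quintiles of genes by mean FPKM it lay between 0.265 in the lowest and 0.454 in the middle one, and the richest decile lay above the poorest by 0.47 to 0.73 in median in all 5. Within quintiles by mean transcript length rho was 0.194 for the shortest transcripts, with a median length of 825 bases, and 0.527 for the longest, with a median of 3208. Weighted by reads, the mean GC content of the transcripts sequenced was 50.7% for control cells, 51.6% after FoxO3 depletion and 51.5% after co-depletion. The co-depleted library, set against the same control library, had medians of -0.49 in the poorest and 0.09 in the richest decile. Depth also differed: the FPKM values rest on 14507410 reads for control and 10760613 for FoxO3-depleted cells, or 74.2% of the control. Whether differences in library preparation, in depth or in the cells gave the slope was not tested, and with 1 library per group they cannot be told apart.

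Composition of the coding sequence went with the ratio more closely than that of the untranslated regions. For 1 chosen coding transcript per gene, rho was 0.418 for GC3, 0.411 for the whole coding sequence, 0.351 for the 3′ untranslated region and 0.144 for the 5′ untranslated region. It was -0.225 for the length of that transcript, -0.179 for the genomic span of the gene and -0.108 for the number of exons. Level went with the ratio too, with a rho of 0.256 for mean FPKM over all 12720 genes. The decile of genes with the lowest GC3, at a median of 33.3%, had a median log2 ratio of -0.71, with 313 of its 1144 genes at least 2-fold lower. In terciles of genes, divided this way after seeing the data, 2624 genes low in both GC3 and the GC content of the 3′ untranslated region had a median of -0.49, with 459 at least 2-fold lower. The 61 genes low in GC3 with a GC-rich 3′ region had -0.13, and the 162 genes high in GC3 with an AT-rich 3′ region had 0.07, with 3 lower. Among genes low in GC3 the ratio also went with length, with medians of -0.16, -0.36 and -0.57 from the shortest to the longest tercile of transcripts. Among genes high in GC3 the same terciles had 0.08, 0.04 and 0.05.

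To compare genes of unlike composition, genes were divided into 50 equal groups by GC content. The median ratio of its group was subtracted from each gene, which is called GC adjustment below. After it 121 genes were at least 2-fold higher, 0.951% of those analysed, and 228 lower, 1.79%. Of the genes past 2-fold before, 72 of the 84 higher and 201 of the 669 lower kept their call. Lower genes made up 88.8% of those called as deposited and 65.3% after adjustment. The adjusted ratio still went with level, with a rho of 0.239 for mean FPKM. Lists of genes were counted at 1.5-fold, which 501 genes (3.94%) passed upward and 2132 (16.8%) downward as deposited, and 743 (5.84%) and 1194 (9.39%) after GC adjustment.

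The same order by composition was seen inside most lists of related genes and most symbol families, although a family shares only letters of its name and can join unlike genes. Of 82 hand-written lists with at least 10 analysed members, 74 had a positive rho between GC content and ratio, with a median of 0.411, and of 136 symbol families 129 did, with a median of 0.403. Among the hand-written lists rho was highest for the golgins and tethers of the Golgi, at 0.843 over 23 genes, and among families it was 0.927 for the 10 DOCK genes. GC-poor golgins and tethers had a median of -0.999 and GC-rich ones 0.07, and for the DOCK genes these medians were -0.70 and -0.18. GCC2, which captures vesicles at the trans-Golgi, was at 12.1 and 3.36 FPKM, with 38.0% GC. GORASP1, a Golgi stacking protein chosen here after its values were seen, was at 36.6 and 49.5 FPKM, with 60.4% GC. The kinesin (KIF) family had a rho of 0.819 over 27 motor protein genes. Its GC-poor members had a median of -1.002, among them KIF18A at 25.3 and 9.85 FPKM and KIF20B at 19.5 and 7.497, and its GC-rich members had 0.07. In the translation initiation factor eIF3 rho was 0.522 over 13 genes, but the GC-poor members had a median of 0.12 and the GC-rich ones 0.27. Its scaffold subunit EIF3A, at 43.8% GC, was at 211 and 139 FPKM, and EIF3E, at 38.6% GC, at 368 and 248. EIF3D, at 50.9% GC, was at 165 and 221, and EIF3G, at 59.1%, at 172 and 231. Other GC-poor subunits were not lower: EIF3J was at 71.7 and 85.6 FPKM with 37.5% GC, EIF3M at 104 and 117 with 42.1% and EIF3H at 172 and 180 with 45.6%, all chosen after their values were seen. In the CCT chaperonin, which folds actin and tubulin, CCT6A (40.2% GC) was at 431 and 327 FPKM and CCT7 (51.0% GC) at 404 and 542, and their coding sequences are among those printed above. Across its list, with prefoldin, rho was 0.499 over 14 genes, with medians of 0.07 in the GC-poor and 0.28 in the GC-rich members. The GC-poor subunits CCT2 (42.8% GC) and CCT4 (43.5%), chosen after their values were seen, were at 282 and 362 and at 182 and 211 FPKM. The order was not universal: among 10 S100 calcium-binding proteins rho was -0.552, and among 18 serpins and cystatins -0.150.

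**Figure D2:**
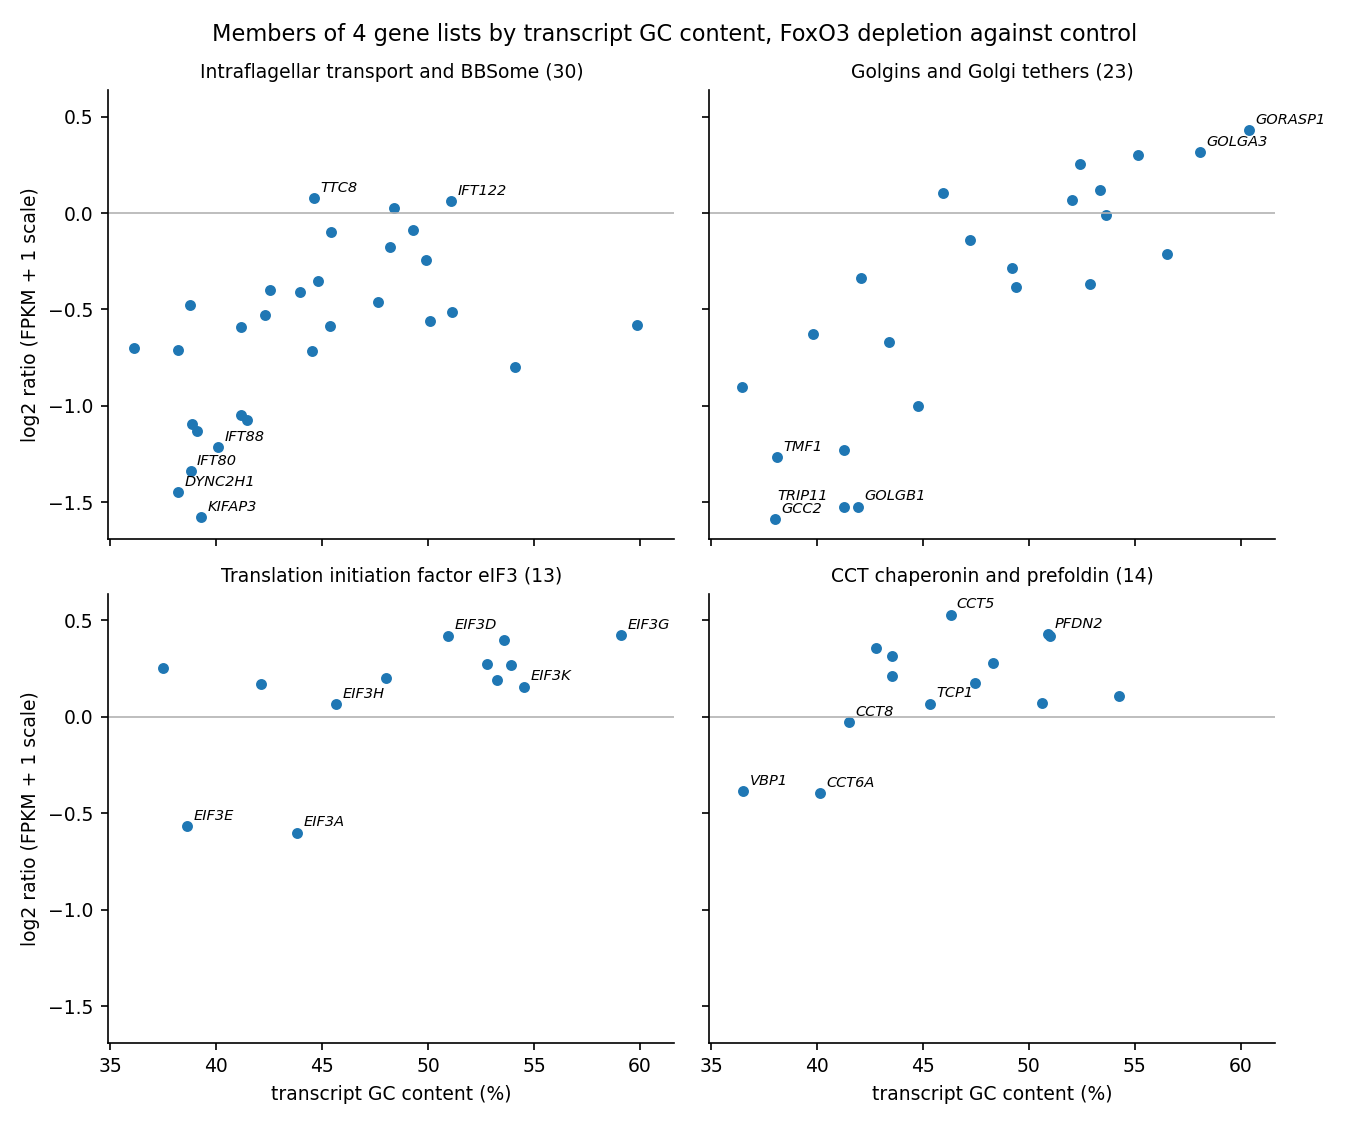
Log2 ratio (FPKM + 1 scale) of each analysed member against its transcript GC content in percent, for intraflagellar transport and BBSome genes, golgins and Golgi tethers, eIF3 subunits and CCT chaperonin with prefoldin, 1 point per gene, with the 4 lowest and 2 highest members of each panel named. In all 4 panels the lowest points lie on the AT-rich side, and the golgins run from -1.59 for GCC2 to 0.43 for GORASP1.

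Genes of the primary cilium and the centrosome had the lowest medians of all lists and families, before and after GC adjustment. Intraflagellar transport particles carry cargo along the ciliary axoneme, and the BBSome sorts membrane proteins for them. Of 30 analysed genes of this list 13 were at least 1.5-fold lower, beside 16.8% of all genes, and 0 higher. Their median was -0.57 against -0.08 for all genes, and 27 lay below 0, beside 7289 of all 12720 genes. After GC adjustment 9 were lower, beside 9.39% of all genes, and the median was -0.37. KIFAP3, the cargo adaptor of the kinesin-2 motor, was at 8.82 and 2.29 FPKM, on 291 and 56 reads. DYNC2H1, the heavy chain of the returning dynein-2 motor, was at 5.44 and 1.36. IFT80 was at 8.47 and 2.75 and IFT88 at 6.35 and 2.16, both core proteins of the anterograde particle. The lower values were not limited to AT-rich members: IFT140, at 59.9% GC, was at 6.77 and 4.19 FPKM, and IFT27, at 54.1% GC, at 9.03 and 4.77. Both of these were chosen after their values were seen. The centrosomal CEP family had 21 of 35 members at least 1.5-fold lower, 0 higher and a median of -0.67. After GC adjustment 5 were lower, beside 9.39% of all genes, and the median was -0.38. The rank of the CEP family depended on the adjustment. After adjustment for GC3 and transcript length its median was -0.20, above -0.41 in the HSD and -0.23 in the GALNT family. The IFT symbol family had -0.43 on that scale. CEP350 was at 40.0 and 12.3 FPKM and CEP152, which recruits the kinase that starts centriole duplication, at 8.36 and 2.56.

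Genes of the Golgi and of glycan synthesis also had low medians, and GC adjustment took away more of the difference than in cilium genes. Of 23 golgins and tethers 9 were at least 1.5-fold lower and 0 higher (median -0.34). After adjustment 5 were lower (-0.13), beside 9.39% of all genes. TRIP11 stood at 16.3 and 5.02 FPKM, and the giant golgin GOLGB1 at 17.97 and 5.60. Their adjusted log2 ratios were -1.09 and -1.13, from -1.52 in both. Of 34 VPS genes of endosomal sorting 7 were lower, or 20.6% beside 16.8% of all genes, and 0 higher (median -0.25, adjusted -0.13). The lipid transfer proteins VPS13A and VPS13C were at 19.1 and 5.76, and at 9.17 and 3.19 FPKM. The GALNT family, enzymes that start O-linked glycosylation, had 5 of 12 members lower (median -0.36, adjusted -0.11), with GALNT1 at 78.5 and 31.8 FPKM. The ALG family, which builds the N-linked glycan on its lipid carrier, had 4 of 13 lower (median -0.49, adjusted -0.16), with ALG9 at 16.9 and 8.53. Away from these groups, C1GALT1, which extends O-linked glycans, was at 57.7 and 15.6 FPKM, and EEA1, the tether of early endosomes, at 29.8 and 8.45.

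Among chromatin remodellers and ubiquitin enzymes, the CHD and ISWI, USP, cullin and HECT lists had medians between -0.29 and -0.20, while SWI/SNF subunits had 0.03 over 18 genes and ubiquitin conjugating enzymes 0.02 over 32. Of 18 CHD and ISWI remodellers 6 were at least 1.5-fold lower and 0 higher (median -0.29, adjusted -0.16). CHD1, a remodeller that travels with elongating RNA polymerase, was at 63.1 and 27 FPKM, and BPTF, the reader subunit of NURF, at 34.1 and 16.7. Of 43 USP deubiquitinases 17 were lower and 0 higher (median -0.23). After adjustment 8 were lower (-0.10), beside 9.39% of all genes. USP12 was at 19.6 and 5.97 FPKM and USP34 at 112 and 46.7. USP22, the deubiquitinase of the SAGA coactivator, was at 209 and 94.6 FPKM, and with 54.2% GC its log2 ratio was -1.13 as deposited and -1.19 after adjustment. Of 18 cullins and adaptors 5 were lower (median -0.22), among them CUL5 at 37.2 and 16.8 FPKM, and of 24 HECT ligases 5 were lower and 1 higher (-0.20). The share lower among HECT ligases, 20.8%, lay near the 16.8% of all genes. After adjustment both lists had medians of -0.01 and 0.00. KEAP1, the adaptor through which NRF2 is degraded, was at 121 and 73.3 FPKM, with 61.6% GC and a log2 ratio of -0.71 before and -0.76 after adjustment.

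**Figure D3:**
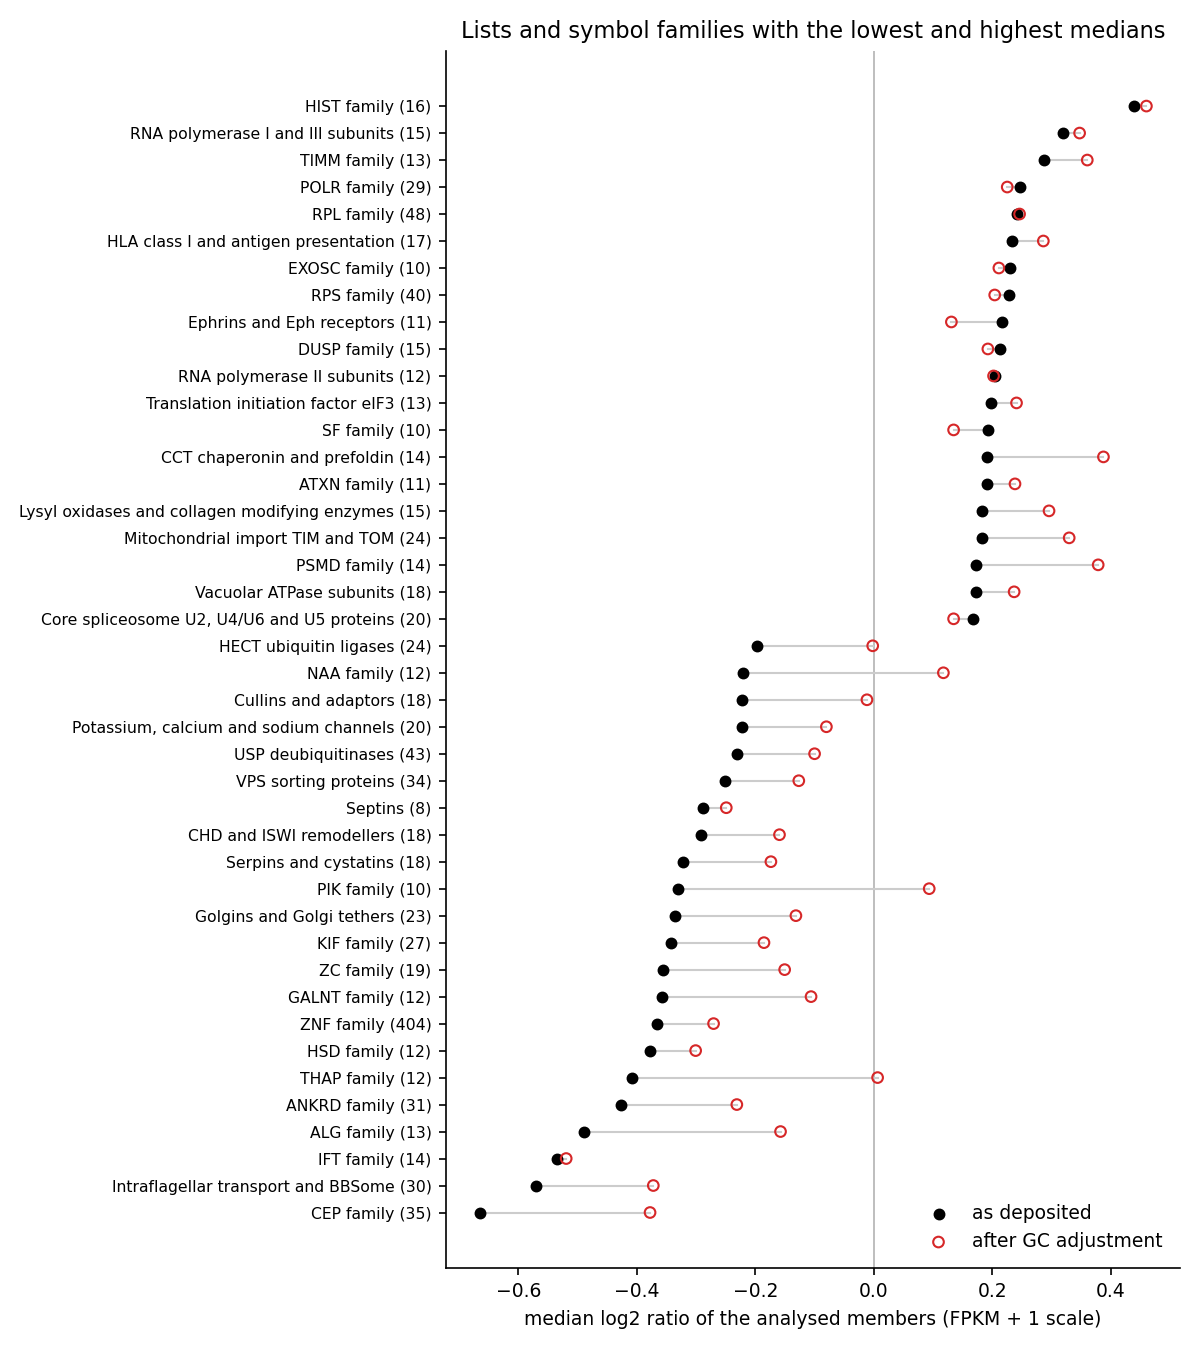
Median log2 ratio (FPKM + 1 scale) of the analysed members of each list or symbol family with the lowest and highest medians, as deposited (black) and after GC adjustment (open red), with the number of members in brackets. The CEP family moves from -0.67 to -0.38 and the IFT family from -0.54 to -0.52, while the PIK and NAA families cross 0.

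The ZNF family of zinc finger genes was the largest group with a low median, and its members lay below other protein-coding genes of like GC content. Most of these genes encode DNA-binding proteins with arrays of zinc fingers, many with a KRAB repressor domain, and about as many stand on chromosome 19 as on all others together. Of 404 analysed members 141 were at least 1.5-fold lower, or 34.9% beside 16.8% of all genes, and 1 higher. The family had a median of -0.37, and 326 members lay below 0, beside 7289 of all 12720 genes. In the quintile of genes poorest in GC the median was -0.81 for 66 ZNF genes against -0.51 for 2266 other coding genes. In the next quintiles it was -0.56 against -0.12, -0.28 against 0.04, -0.04 against 0.08 and -0.10 against 0.05. GC adjustment left 87 members lower, beside 9.39% of all genes, and a median of -0.27. At like transcript GC content the ZNF genes had lower GC3, 38.3% against 46.5% in the second-poorest quintile, and adjustment for GC3 and transcript length brought their median to -0.11. The 198 members on chromosome 19 had a median of -0.45 and the 206 elsewhere -0.29, against 0.11 for 634 other coding genes of chromosome 19. ZNF638 was at 39.5 and 12.9 FPKM, ZNF33B at 9.57 and 2.75, ZNF84 at 15.3 and 4.98 and ZNF302 at 21.8 and 7.91. ZNF genes share sequence with close copies, so the reads of single members are uncertain.

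**Figure D4:**
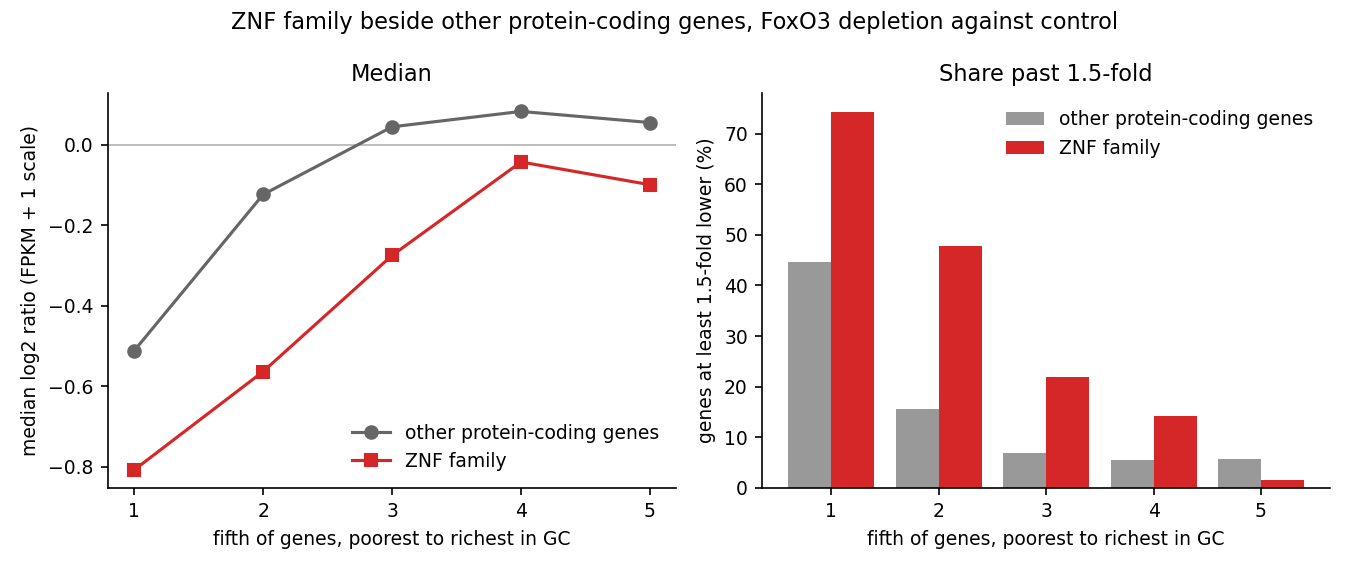
ZNF family (red) and other protein-coding genes (grey) in each quintile of genes by transcript GC content, with the median log2 ratio (FPKM + 1 scale) on the left and the percent of genes at least 1.5-fold lower on the right. The red median lies below the grey one in all 5 quintiles, while the share past 1.5-fold is 1.56% against 5.62% in the richest quintile.

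Other low groups were mixed, and their medians hid single genes with large differences. At 1.5-fold, 16.8% of all analysed genes were lower and 3.94% higher. The symbol family HSD, hydroxysteroid dehydrogenases, had 2 of 12 members lower, or 16.7%, which is near the share of all genes, and 2 higher (median -0.38). Most of its range came from HSD17B12, which acts in fatty acid elongation, at 95.4 and 20.8 FPKM. Of 8 septins, filament-forming GTPases, SEPT7 was at 118 and 51.3 FPKM and SEPT10 at 101 and 54.6. Of 18 serpins and cystatins 5 were lower and 2 higher (median -0.32), with the collagen chaperone SERPINH1 at 225 and 450 FPKM. The salivary cystatin CST4 was at 152 and 74.5 FPKM. In the ANKRD family, named for ankyrin repeats, 11 of 31 were lower, or 35.5%, and 2 higher (median -0.43). ANKRD26 was at 9.04 and 2.46 FPKM, whereas ANKRD1, a muscle and stress protein, was at 180 and 556. Ion channels had a median of -0.22 over 20 genes, which was 0.07 at a mean of at least 5 FPKM, and included the channel kinase TRPM7 at 18.7 and 6.86 FPKM. The ZC family, zinc finger proteins of the CCCH and other types, had 6 of 19 lower, or 31.6%, and 1 higher (median -0.36). The higher gene was ZC3H12A, a ribonuclease that cuts cytokine messages, at 4.05 and 8.50 FPKM. The THAP, PIK and NAA families had medians of -0.41, -0.33 and -0.22, which were 0.01, 0.09 and 0.12 after GC adjustment. Of these, the lipid kinase genes PIK3CA and PIK3C2A kept adjusted log2 ratios of -0.82 and -1.002, at 19.9 and 7.36, and at 25.6 and 9.91 FPKM.

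Groups with high medians were mostly complexes of RNA and protein synthesis and turnover, with small differences shared by most members. Groups differed in level as well, beside a median control level of 19.3 FPKM for all genes. That median was 6.82 for the ZNF, 11.3 for the IFT, 12.1 for the CEP and 35.7 for the GALNT family. It was 27.6 for the POLR, 361 for the RPS and 491 for the RPL family. What part level had in the group medians was not tested. RNA polymerases I and III make ribosomal and transfer RNA. Of their 15 analysed subunits 12 lay above 0, beside 5431 of all 12720 genes. The median of the subunits was 0.32, yet 0 passed 1.5-fold upward and 1 downward. POLR3D was at 18.05 and 26.9 FPKM, POLR1E at 26.5 and 37.1 and POLR1A at 87.3 and 121. POLR3G, an AT-rich gene of the same list, was at 11.6 and 6.79 FPKM. Of 12 subunits of RNA polymerase II 9 lay above 0 (median 0.20), and of 10 members of the exosome family EXOSC, which degrades RNA from its 3′ end, 8 did (0.23). Of 20 core spliceosome genes 17 lay above 0 (0.17), with EFTUD2 at 144 and 192 FPKM, while SF3B1, with 40.3% GC, was at 239 and 161 FPKM. The POLR, TIMM, SF and ATXN symbol families, which overlap some of these lists or join unlike genes, had medians of 0.25, 0.29, 0.19 and 0.19 over 29, 13, 10 and 11 genes. The RPL symbol family of the large ribosomal subunit had 42 of 48 members above 0 and a median of 0.24. The RPS family, with 30 of 40 above 0 and a median of 0.23, also holds the S6 kinases, of which RPS6KB1 was at 32.6 and 15.5 FPKM.

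Chaperone, import and proteasome genes stood higher after GC adjustment than before it. That adjustment takes no account of level. The decile poorest in GC had a median of -0.37 in the quintile of highest mean FPKM, against -0.64 over all levels. The CCT chaperonin and prefoldin had a median of 0.19 over 14 genes, or 0.39 adjusted, when 3 passed 1.5-fold upward, beside 5.84% of all genes. CCT5 was at 423 and 611 FPKM. Of 24 genes of the mitochondrial import complexes TIM and TOM 15 lay above 0, beside 5431 of all 12720 genes. Their median was 0.18, or 0.33 adjusted. TOMM40, the pore of the outer membrane, was at 127 and 195 FPKM, and TIMM13 at 54.4 and 75.4. TOMM34, a cytosolic cochaperone with 53.4% GC, differed from them at 80.4 and 54.2 FPKM. The PSMD family, subunits of the proteasome's regulatory particle, had a median of 0.17, or 0.38 adjusted, over 14 genes, with PSMD13 at 136 and 200 and PSMD3 at 149 and 218 FPKM. Adjusted for GC3 and transcript length instead, the PSMD family had 0.20. The TIMM family had 0.29 as deposited, 0.36 after GC adjustment and 0.25 after that for GC3 and length. The HIST family had the highest median of all families, 0.44, or 0.46 adjusted, with 15 of 16 members above 0 but 2 past 1.5-fold. HIST1H1E was at 2.55 and 5.80 FPKM on 29 and 49 reads, and HIST1H1C at 54.0 and 78.6. Replication-dependent histone messages lack a poly(A) tail, and the sources used here do not say how messenger RNA was enriched.

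The other high groups were mixed: antigen presentation, ephrins, collagen-modifying enzymes, the vacuolar ATPase and the DUSP family. The COL symbol family of collagens was not among them, with a median of 0.04 and 10 of 20 members above 0. Of 17 genes of HLA class I and antigen presentation 15 lay above 0, beside 5431 of all 12720 genes. In that list 2 passed 1.5-fold upward, beside 3.94% of all genes (median 0.23, adjusted 0.29). The peptide transporter subunit TAP1 was at 43.9 and 81.0 FPKM and HLA-B at 418 and 599. Reads of HLA genes can be shared among near-identical copies. Of 11 ephrins and Eph receptors 2 were higher and 1 lower (median 0.22), with EPHA2 at 494 and 891 FPKM and its ligand gene EFNA5 at 21.5 and 33.3. Of 15 lysyl oxidases and collagen-modifying enzymes 3 were higher and 2 lower (median 0.18, adjusted 0.30), with the prolyl hydroxylases P3H2 at 61.4 and 112 and P4HA2 at 29.8 and 48.2 FPKM. Of 18 subunits of the vacuolar ATPase, the proton pump of lysosomes, 2 were higher and 1 lower (0.17), with ATP6V0B at 121 and 197 FPKM. In the DUSP family, phosphatases of MAP kinases and other proteins, 2 of 15 were higher and 0 lower (0.21), the 2 being DUSP1 at 12.4 and 48.8 FPKM and DUSP16 at 9.92 and 16.1. The fibroblast marker sum, 30.3 and 54.7 FPKM, was higher alongside the collagen-modifying enzymes. The cultures were of 1 established line, and COL3A1, DCN and LUM were each under 1 FPKM in both libraries. What part this sum had in these differences was not tested. In bulk RNA a change in the share of cells and a change in RNA per cell cannot be told apart.

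Some genes stood far from others of their GC content. The 12 highest after adjustment, among genes with a mean of at least 5 FPKM, were SAA1, IL6, MAMDC2, THBS1, ANKRD1, PPME1, DUSP1, F3, ADM, IL7R, C4BPB and ID3. Their adjusted log2 ratios ran from 2.59 for SAA1 to 1.59 for ID3. IL7R, the receptor for interleukin 7, was at 15.6, 45.4 and 40.2 FPKM, an FPKM ratio of 2.92 (2.52 to 3.39) after FoxO3 depletion. C4BPB, a chain of a complement inhibitor, was at 41.1, 125 and 118 FPKM. The 12 lowest were MT1E, MRPL10, HSD17B12, FOXO3 itself, CENPF, MBNL1, DYNLT3, KCTD9, FRYL, NGEF, EEA1 and C1GALT1, from -2.22 to -1.57 adjusted. The co-depleted library is given beside them, but it is set against the same control and is also depleted of FoxO3, and the genes were picked as extreme against that control, so that its values are no independent check. The dynein light chain DYNLT3 was at 39.6, 11.4 and 17.8 FPKM, and the guanine nucleotide exchange factor NGEF at 10.8, 3.09 and 3.46. MRPL10, a protein of the mitochondrial ribosome with 55.9% GC, was at 28.3, 7.05 and 7.5 FPKM. CENPF, a kinetochore protein, and FRYL, with 40.9% and 41.4% GC, moved the most on adjustment among these, from -2.16 to -1.68 and from -2.05 to -1.62.

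**Figure D5:**
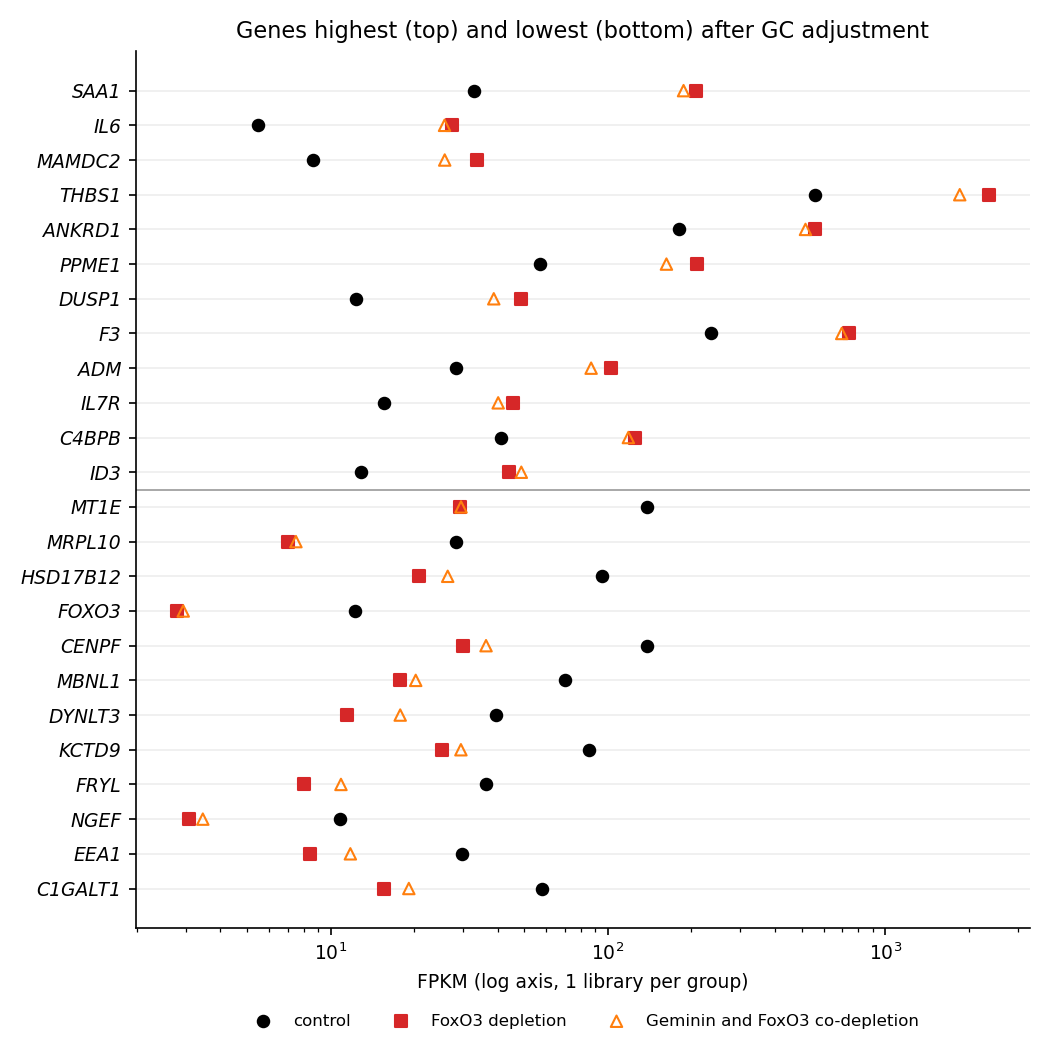
FPKM (log axis) of the 12 genes with the highest and the 12 with the lowest GC-adjusted log2 ratio among genes with a mean of at least 5 FPKM, in control (black circles), FoxO3-depleted (red squares) and co-depleted cells (open triangles), 1 library each. SAA1 is at 33.0, 207 and 187 FPKM, and both depleted libraries share the control against which the genes were picked.

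Exceptions to the slope stood at both ends of the GC range. In the decile poorest in GC, 12 of 1272 genes were at least 1.5-fold higher. CXCL10, a chemokine that attracts T cells, had the highest ratio there, at 0.411, 4.91 and 8.27 FPKM. It rested on 7 and 62 reads, so its FPKM ratio of 11.9 has a counting interval of 5.46 to 30.9. TNFSF18, the ligand of the receptor GITR, was at 0.313, 2.43 and 1.56 FPKM (7.79, 3.8 to 17.98). BIRC3, an inhibitor of apoptosis induced by NF-kB, was at 23.4, 42.8 and 53.3 FPKM (1.83, 1.65 to 2.02). The other 5 of the 8 highest there were non-coding: LINC02562, AL365184.1, AL158839.1, AC011451.1 and POLH-AS1, of which POLH-AS1 was at 3.27 and 6.85 FPKM and overlaps POLH on the other strand. At the other end, the 8 lowest genes of the richest decile were YPEL3, SPEG, SLC22A18, RXRA, NGFR, SIGIRR, CPNE7 and BTBD2. YPEL3, a growth suppressor, was at 11.6 and 3.69 FPKM (0.32, 0.22 to 0.46). RXRA, the shared partner of many nuclear receptors, was at 28.0 and 11.7 (0.42, 0.38 to 0.46). NGFR, the low-affinity neurotrophin receptor, was at 42.7 and 18.4 (0.43, 0.38 to 0.48), and SIGIRR, an inhibitor of interleukin-1 and Toll-like receptor signalling, at 16.4 and 6.83 (0.42, 0.31 to 0.55). On the log2 scale these 4 genes stood at -1.43, -1.19, -1.17 and -1.15, and with GC adjustment at -1.49, -1.25, -1.16 and -1.14.

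AU-rich motifs in the 3′ untranslated region were denser in the higher genes than in all genes. The motif TATTTAT, searched on the transcript strand, is a core of elements through which short-lived messages are degraded. It was present in 32.8% of 11066 genes with a 3′ region long enough to search, at 0.329 matches per kilobase. Of the 68 genes at least 2-fold higher with such a region 34 held it, or 50%, at 0.774 matches per kilobase. Of 595 genes at least 2-fold lower 53.1% held it, at 0.423 per kilobase over longer regions, with a median of 1912 bases against 1210.5 in the higher genes. The decile of genes poorest in GC had 54.8% and 0.474 per kilobase. Below are the first matches in 6 higher genes, with 27 bases of GENCODE 29 sequence (GRCh38) and the motif in capitals. IL6, CSF2 and IL11 are cytokine messages, DUSP1 is an immediate early gene, and THBS1 and F3 encode thrombospondin-1 and tissue factor.
IL6, chr7:22731750-22731776 (+): atgtaagtcaTATTTATatttttaaga
CSF2, chr5:132076045-132076071 (+): aaatcagtaaTATTTATatatttatat
IL11, chr19:55365948-55365974 (-): agccagatctTATTTATttatttattt
DUSP1, chr5:172768644-172768670 (-): ggctggtcctTATTTATttaacttcac
THBS1, chr15:39596377-39596403 (+): cgatgtaaaaTATTTATtttttactta
F3, chr1:94529385-94529411 (-): ggggattttcTATTTATgtaggtaata
CSF2 and IL11 held 7 overlapping or separate matches each, IL6, DUSP1 and THBS1 3 each and F3 2. A match is a description of the sequence and does not show that the element acts.

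Base composition of the promoter, in contrast to that of the transcript, hardly went with the ratio. RefSeq promoters (GRCh38.p14, 250 bases before to 50 after the start) were matched by symbol for 9485 of the 12720 genes, and rho between their GC content and the ratio was 0.073. Their median GC content was 65.3% for all matched genes, 64.0% for the 57 higher and 64.0% for the 524 lower ones. Motifs were searched on both strands. The letters TATAAA, as in many core promoters, were in 5.16% of matched promoters and in 9 of the 57 of higher genes, or 15.8%. The AP-1 motif TGANTCA was in 4.48% and in 6 of 57, or 10.5%, and after GC adjustment in 12 of 80 higher genes, or 15.0%. The forkhead motif GTAAACA, which FoxO factors bind, was in 2.21% of matched promoters, in 2 of the 57 higher and in 26 of the 524 lower ones, or 4.96%. In all 27305 promoters of the table the shares were 11.95% for TATAAA, 7.76% for the AP-1 motif and 3.41% for the forkhead motif. An NF-kB motif was in 2.20% of matched promoters and in 1 of 57, that of IL6, and the cyclic AMP response element TGACGTCA in 3.45% and in 1 of 57, that of DUSP1. Stretches of 60 bases upstream of the start are shown for 4 higher genes with the motif in capitals, for IL6 the NF-kB letters, for F3 an AP-1 motif, for DUSP1 the cyclic AMP element and for ADM the TATA box.
IL6, chr7:22727102-22727161 (+): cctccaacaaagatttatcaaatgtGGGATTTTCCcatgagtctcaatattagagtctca
F3, chr1:94541949-94542008 (-): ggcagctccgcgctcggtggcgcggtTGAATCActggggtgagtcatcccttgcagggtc
DUSP1, chr5:172771287-172771346 (-): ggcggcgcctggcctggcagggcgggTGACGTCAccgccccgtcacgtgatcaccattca
ADM, chr11:10305013-10305072 (+): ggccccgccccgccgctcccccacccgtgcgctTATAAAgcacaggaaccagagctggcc
These genes were at 5.46 and 27.3 FPKM (IL6), 235 and 738 (F3), 12.4 and 48.8 (DUSP1) and 28.3 and 103 (ADM) in control and FoxO3-depleted cells.

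Runs of neighbouring genes that differed together were looked for along each chromosome. After GC adjustment, 21 runs of at least 3 adjacent analysed protein-coding genes were all at least 1.5-fold lower, holding 63 genes, and 5 runs with 18 genes were all higher. As deposited there were 106 lower runs with 392 genes and 2 higher runs with 6. Among all 11456 protein-coding genes, 1006 were lower and 647 higher at 1.5-fold after GC adjustment, and 1884 and 438 as deposited. Some runs arise from such shares alone, and how many was not tested. Every member passed 1.5-fold as deposited too in 19 of the 21 lower and 0 of the 5 higher runs, and after adjustment for GC3 and length in 9 and 1. Zinc finger genes alone made up 10 of the 21 lower runs, 6 of them on chromosome 19, such as ZNF880, ZNF528 and ZNF808, but 0 of these 10 held for every member after adjustment for GC3 and length. The metallothioneins MT2A, MT1E and MT1A, zinc-binding proteins on chromosome 16, formed another, at 741, 138 and 9.4 FPKM in control cells against 365, 29.4 and 5.4. So did the cystatins CST4, CST1 and CST2 on chromosome 20, at 152, 528 and 49.6 FPKM against 74.5, 314 and 29.4. MRPL10 lay between OSBPL7 and SCRN2 on chromosome 17, which were at 5.44 and 2.66, and at 23.5 and 15.2 FPKM. Higher runs held the chemokine genes CXCL8, CXCL1 and CXCL3 on chromosome 4, at 14.5, 3.55 and 0.734 FPKM in control cells against 20.8, 7.23 and 1.98. SAA2 and SAA1 formed one with HPS5 and GTF2H1 on chromosome 11. BMP4, a growth factor of the TGF-beta family, ended a run on chromosome 14, at 262 and 507 FPKM. Copies in such clusters can share reads. PPME1, at 57.0 and 209 FPKM, and C2CD3, at 38.6 and 81.7, stand head to head on opposite strands of chromosome 11 and overlap in the annotation, so without a stated strand their reads there cannot be told apart.

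By gene class, the median was -0.06 for 11456 protein-coding genes, -0.15 for 401 antisense genes and -0.19 for 309 long intergenic RNA genes, and after GC adjustment 0.01, -0.12 and -0.15. Processed pseudogenes, at -0.06 over 125 genes, lay close to coding genes. Among the nuclear chromosomes medians ran from -0.25 on chromosome 13, with a median GC content of 43.8% over 206 genes, to 0.08 on chromosome 22, with 56.8% over 294. The order was not strictly that of GC content: chromosome 19, the richest at 58.8%, had -0.01, and chromosome 14, at 48.5%, had -0.18 against -0.11 for chromosome 18 at 45.9%. After adjustment chromosomes 13 and 22 had -0.01 and 0.04. The 13 genes of the mitochondrial genome had a median of -0.26, or -0.08 adjusted.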

How the data were processed

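The authors deposited FPKM values per Ensembl gene, 1 file per library. TopHat2 2.0.9 is named in the submitters' processing notes. For the read counter, build, annotation and strand setting the sources used here give nothing. FPKM steps gave back whole reads for 20587 of 20591 genes (99.98%) against 0.00% of random values, from totals of 14507410, 10760613 and 12267332 reads. The reads given are the smallest whole numbers that fit, so they are too low where the true counts share a factor. Implied lengths, on which levels depend, equal the GENCODE 29 mean transcript length for genes such as MRPL10, but not for MT1E, GNG11 or BRCA1. Exact 95% Clopper-Pearson intervals of gene ratios use these recovered reads, cover counting error only and are too wide where the reads are too low. A further 300 genes above the minimum lack a symbol in GENCODE 29 and were not used here. A pseudocount of 1 was added. GC adjustment subtracts the median of the gene's own bin, out of 50 equal bins by GC content, and was tested on simulated data. Members and the 84 gene lists, beside 6 lists of cell markers, were chosen with earlier results of these data known. Symbol families share the letters before a number and have at least 10 members. Their letters can join unrelated genes. Lists with the 10 highest and 10 lowest medians, or moved over 0.3 by adjustment, are described. Named genes are FOXO3, the 12 highest and lowest adjusted at a mean of 5 FPKM, 8 exceptions per GC extreme and up to 4 members per list with the largest ratios, and other names were chosen after their values were seen. Python 3.11.15, pandas 2.3.3 and scipy 1.17.1 were used.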

Additional observations from a re-analysis of the deposited data

How the results depend on the processing

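No paired analysis was possible because each group holds 1 library. For the number of genes at least 2-fold higher, lower and the share lower, the values beyond 1.5 times the reported count, or outside a binomial interval of 86.4% to 91.0% around the share, were as follows. Genes share both libraries and are not independent, so that interval serves only as a yardstick. A pseudocount of 0.1 gave 160 higher and 1070 lower. A 1.5-fold rule gave 501, 2132 and 81.0%, and a 3-fold rule 12, 52 and 81.25%. GC adjustment gave 228 lower and 65.3%, and GC and length adjustment 128, 223 and 63.5%. Adjustment for GC3 and length, chosen after seeing the data, gave 154 lower and 60.4%. Rescaling by the median FPKM ratio gave 82.4% lower. The rank correlation of ratio and GC content was -0.0084 after GC adjustment, -0.027 after GC and length adjustment and 0.000958 after that for GC3. On the same scales the difference in median between the GC-richest and GC-poorest decile was 0, -0.021 and 0.0501. Adjustments by transcript GC content remove this trend by construction, whereas that for GC3 and length divides genes by other properties. With no minimum on FPKM the difference in median between these deciles was 0.23, and the cause was not tested. Of 42 list and family medians, those that changed sign were ion channels at a mean of at least 5 FPKM (0.0711), THAP, PIK and NAA after GC adjustment (0.00652, 0.0937 and 0.118), PIK and NAA after GC and length adjustment (0.12 and 0.0403) and ZC and PIK after that for GC3 (0.0428 and 0.21). Of 209 named genes 37 lost their 2-fold call on GC adjustment and 8 gained one, and 0 past 2-fold changed sign under any alternative. Rescaling to TPM, a mean of at least 5 FPKM, a minimum of 20 reads (chosen after seeing the data), protein-coding genes alone, a pseudocount of 0.5 and GC content of the longest transcript moved none of these counts, shares or trends beyond those limits. The depth of the FoxO3-depleted library limits low genes, such as NGEF, for which 18 reads were recovered, a number that can be too low.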
